A study of Mus musculus with 22 samples.

Results

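The genes described here are the D cyclins Ccnd1, Ccnd2 and Ccnd3, their kinase partners Cdk4 and Cdk6, the inhibitors Cdkn1b, Cdkn1c, Cdkn2a and Cdkn2b, and Rb1. They were taken by symbol, and all 10 are among the 17541 genes listed in the count files of mouse esophageal epithelium. Their levels were compared per mouse between control mice, mice with eosinophilic esophagitis (EoE) and mice with esophageal squamous cell carcinoma (ESCC), first over all epithelial cells and then within cells rich in Krt5, the keratin of the basal layer.

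These genes govern the step at which a cell leaves G1 phase and commits to DNA replication. A D cyclin, made in response to growth signals, binds Cdk4 or Cdk6, and the complex phosphorylates the retinoblastoma protein, which then releases E2F factors that switch on replication genes. INK4 inhibitors bind Cdk4 and Cdk6 directly, while CIP/KIP inhibitors bind cyclin and kinase complexes. In the esophagus, division takes place in and next to the basal layer, and cells that move toward the surface stop dividing and differentiate.

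Epithelium was peeled from C57BL6 mice and its single cells were profiled with inDrop, which encloses cells in droplets and tags each captured RNA molecule with a unique molecular identifier (UMI). Untreated controls were 3 young mice of 3-4 months (mice 1, 2 and 6) and 3 old mice of 18-20 months (mice 3, 4 and 5). EoE was induced in 2 young mice of 6-8 weeks (mice 9 and 10) and 2 old mice of 19-20 months (mice 11 and 12) with a 32 day protocol, in which MC903, a vitamin D analog, and ovalbumin (OVA) were put on scraped ears for 12 days and OVA was given by gavage and in drinking water from day 15. ESCC was induced in 3 mice of 8-10 months (mice 8M, 17F and 17M) with the carcinogen 4NQO in drinking water for 16 weeks, and 4NQO was then withdrawn for 8 weeks. Controls were untreated, all groups share the strain, the ESCC mice were of another age than the controls, and the labels name no batch, so batch and condition cannot be told apart, nor can age and condition for ESCC. By the labels the young EoE mice (6-8 weeks) were also younger than the young controls (3-4 months). For them age and condition cannot be told apart either, and the fits split by age call both young.

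After limits on genes and UMIs and removal of cells with more non-epithelial than epithelial marker UMIs, 1493 control cells, 143 EoE cells and 1472 ESCC cells were used. They held 111043 to 427752 UMIs per control mouse, 6245 to 41909 per EoE mouse and 1240388 to 2103543 per ESCC mouse. Depth therefore moved with condition, and the EoE mice, with 11 to 57 cells each, carry the largest error. Libraries of the same mouse shared 239 cell barcodes and libraries of different mice shared 45. Levels are given as counts per 1000000 (CPM), the UMIs of a gene over all UMIs of the mouse, and mice were the replicates.

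Markers of other cell types were low but not equal between groups. The 20 listed of 24 immune markers summed to 0 to 39.3 CPM in control mice and 88.7 to 133 CPM in ESCC mice. In controls 12 of the 20 were at 0, among them Ptprc and Cd3e, and in ESCC 1 was (Cd79b). The 8 fibroblast markers summed to 64.6 to 369 CPM in controls and 15.2 to 121 CPM in ESCC, the 8 endothelial markers to at most 21.3 and 18.4 CPM and the 8 muscle markers to at most 17.7 and 35.2 CPM. Of 7 listed eosinophil and mast cell markers, Kit alone had UMIs, in ESCC (at most 1.73 CPM). In EoE cells the immune, muscle, eosinophil and mast cell markers were all at 0, the fibroblast markers summed to 0 to 219.7 CPM and the endothelial markers to 71.6 to 278 CPM, all of it Pecam1, with the other 7 at 0. The part of these cells in the results below was not tested unless a value is given.

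In ESCC, Cdk6 and Cdk4 rose and Cdkn1b fell against control mice, and Cdkn2a was detected in every ESCC mouse but in 2 of 6 controls. Of the 10 genes, 6 had enough UMIs to enter the fit over all cells, of which 2 rose, 1 fell and 3 did not pass the threshold of an adjusted p of 0.05. Over all 5866 genes tested, 34.6% were called in this comparison, so that the share of members called is not far from that of any gene. The median log2 fold change was 0.13 over the 6 members and 0.01 over all genes. With library totals in place of TMM scaling the median of all genes moved to -0.17 and the calls from 1046 higher and 985 lower to 759 and 1437.

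**Figure D1:**
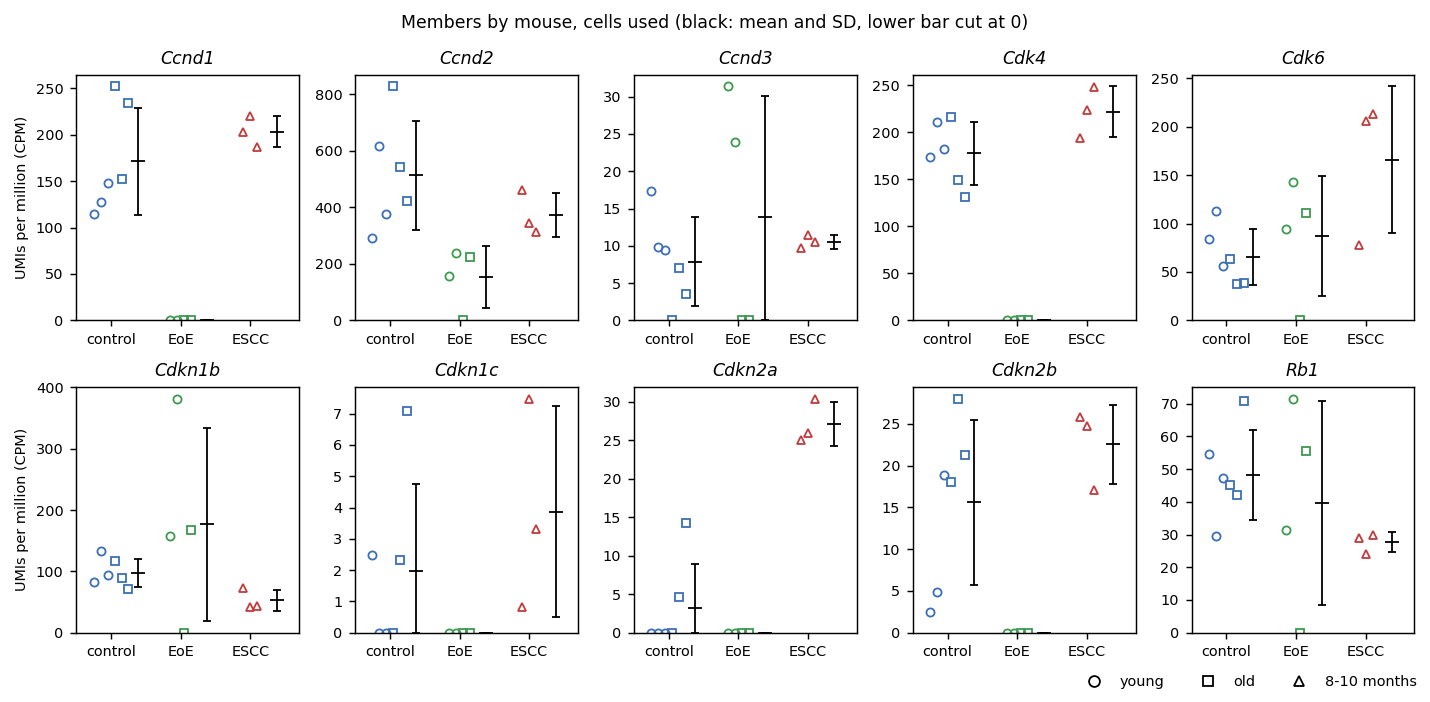
CPM of each of the 10 genes (vertical axis, linear, each panel with its own scale) in every control, EoE and ESCC mouse, in the cells used. Circles are young, squares old and triangles 8-10 months, and the black bar gives the mean and SD. Cdkn2a in the 3 ESCC mice (25.0 to 30.4 CPM) lies above all 6 controls, while Cdk6 in mouse 8M (78.2 CPM) lies within the range of the controls.

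Positions are given in GRCm38 from the GENCODE M21 annotation. Among the cyclins, Ccnd1 (chr7:144929931-144939925, - strand) encodes cyclin D1, and in controls it ranged from 114 to 252 CPM with a median of 150.0 CPM. ESCC mice 8M, 17F and 17M had 202, 219.9 and 187 CPM. All 3 ESCC values lay within the control range. Ccnd1 had a log2 fold change of 0.49 ± 0.21 (SE) with an edgeR adjusted p of 0.0667, and the exact permutation test of the means gave p = 0.381. Without control mouse 3 or control mouse 5, the controls with the highest Ccnd1, the value passed (0.58, edgeR adjusted p = 0.0231, and 0.62, 0.0302), as it did with groups split by age (0.49, 0.0416).

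For Ccnd2 (chr6:127125162-127152193, - strand), which encodes cyclin D2, the control mice ranged from 293 to 829 CPM with a median of 482 CPM. The ESCC mice had 463, 345 and 314 CPM in the order 8M, 17F and 17M. The groups overlapped, and the log2 fold change of -0.23 ± 0.24 did not pass (edgeR adjusted p = 0.497), with an interval of -0.70 to 0.24. Ccnd3 (chr17:47505051-47599691, + strand), which encodes cyclin D3, was near the limit of detection, with 16 UMIs over the controls and 54 over ESCC. Its mean was 7.87 ± 5.97 CPM (SD, n = 6) in control and 10.6 ± 0.924 CPM (n = 3) in ESCC, a count ratio of 1.16 with a 95% counting interval of 0.653 to 2.17, so that no difference was detectable at this depth. Part of its sequence is shared with the pseudogene Ccnd3-ps (14.2% of the 31 base stretches in its last 300 bases), so its counts are uncertain.

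Of the kinases, Cdk4 (chr10:127063534-127067920, + strand) ranged from 131 to 216 CPM in controls with a median of 178 CPM, and was 194, 223 and 248 CPM in ESCC mice 8M, 17F and 17M. Mice 17F and 17M lay above every control and mouse 8M lay among them. Cdk4 rose by a log2 fold change of 0.55 ± 0.18 (edgeR adjusted p = 0.0170), but the exact permutation test of the means gave p = 0.0952. The call was lost without control mouse 4 (0.50, edgeR adjusted p = 0.0609), control mouse 5 (0.48, 0.0650), ESCC mouse 17F (0.54, 0.0868) or ESCC mouse 17M (0.45, 0.140), and with library totals in place of TMM scaling (0.37, 0.109).

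The promoter of Cdk4 is shown because it held more copies of an E-box, the letters CACGTG that MYC and related factors bind, than any other member's. The sequence is RefSeq's, build GRCm38.p6, + strand, from 250 bases before to 50 after the start site, at chr10:127063285-127063584, with the 4 E-boxes in capitals.
Cdk4: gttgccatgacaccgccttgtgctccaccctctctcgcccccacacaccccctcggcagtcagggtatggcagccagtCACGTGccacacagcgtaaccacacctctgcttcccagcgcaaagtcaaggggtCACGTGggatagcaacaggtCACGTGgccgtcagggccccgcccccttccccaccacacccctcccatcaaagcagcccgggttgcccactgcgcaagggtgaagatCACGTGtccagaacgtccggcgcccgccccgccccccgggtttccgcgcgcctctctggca
The E-boxes began 172, 118, 98 and 11 bases before the start site. Of all 32851 promoter windows of this length, 2349 (7.15%) held the letters on either strand. Among the 6 members with a window, Cdk6 held 1 E-box, 220.0 bases before its start, and Ccnd3, Cdkn1b, Cdkn2a and Cdkn2b held none. Ccnd1, Ccnd2, Cdkn1c and Rb1 had no window in the table used.

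Cdk6 (chr5:3341485-3531008, + strand) had the largest log2 fold change of the 6 members tested. In controls it ranged from 37.4 to 113 CPM with a median of 59.9 CPM, and the means were 65.6 ± 28.9 CPM (SD, n = 6) in control and 166 ± 75.9 CPM (n = 3) in ESCC. ESCC mouse 8M had 78.2 CPM from 97 UMIs, mouse 17F 206 CPM from 358 UMIs and mouse 17M 213 CPM from 448 UMIs. Mice 17F and 17M lay above all controls and mouse 8M lay below 2 of them.

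The 2 libraries of each ESCC mouse gave like values of Cdk6, 68.2 and 85.6 CPM for 8M, 208 and 204 CPM for 17F and 236 and 195 CPM for 17M. The gap between 8M and the others was seen in both. Libraries of 1 mouse shared cell barcodes, 27 of 299 in 8M, 38 of 475 in 17F and 52 of 609 in 17M. They are not separate replicates, and their likeness cannot decide whether the mice differ. Cdk6 rose by a log2 fold change of 1.58 ± 0.27 (edgeR adjusted p = 2.93e-05), or 2.99-fold, and the exact permutation test gave p = 0.0357. It passed with each of the 13 mice left out in turn, at 1.35 to 1.88. Cdk6 is also expressed in immune cells, whose markers were higher in ESCC as given above, and the part of immune cells in this rise was not tested.

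CDKN1B protein (p27) is the CIP/KIP inhibitor that holds resting cells in G1. Cdkn1b (chr6:134920401-134925513, + strand) ranged from 71.0 to 133 CPM in controls with a median of 91.7 CPM, and was 72.6, 41.5 and 44.2 CPM in ESCC mice 8M, 17F and 17M. Mouse 8M lay just above the lowest control and the others lay below all controls. Cdkn1b fell by 0.66 on the log2 scale, with an SE of 0.25 (edgeR adjusted p = 0.0391, exact permutation p = 0.0476). The call was lost without control mouse 2 (-0.58, edgeR adjusted p = 0.0795), 6 (-0.66, 0.0658), 3 (-0.63, 0.0526) or 4 (-0.68, 0.0624), without ESCC mouse 17F (-0.52, 0.225) or 17M (-0.55, 0.178), and in DESeq2 (-0.68, 0.0778). Cdkn1c (chr7:143458339-143461050, - strand), which encodes p57 and is expressed from the maternal allele, had 4 UMIs over all controls and 21 over ESCC, 13 of them in mouse 17F, a count ratio of 1.80 with a 95% counting interval of 0.608 to 7.22.

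Cdkn2a (chr4:89274471-89294653, - strand) was all but absent from controls. The gene encodes the INK4 inhibitor p16 and, from another start site and reading frame, ARF, which stabilizes p53. Control mice 1, 2, 3 and 6 had 0 UMIs, control mouse 4 had 2 (4.68 CPM) and control mouse 5 had 4 (14.2 CPM). ESCC mice 8M, 17F and 17M had 31, 45 and 64 UMIs, or 25.0, 25.9 and 30.4 CPM. Every ESCC mouse lay above every control.

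Over the groups, Cdkn2a had 140 UMIs of 5080711 in ESCC and 6 of 1744511 in control, a ratio of 8.01 with a 95% counting interval of 3.59 to 22.2. The exact permutation p of 0.0119 was the smallest that 84 splits can give. Cdkn2a had too few UMIs for the main filter and was not among the genes tested. With no filter on low counts its log2 fold change was 3.08 ± 0.50 (edgeR adjusted p = 2.3e-08). Both control mice with UMIs were old, and the age and condition of the ESCC mice cannot be told apart.

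Because both products of Cdkn2a share their 3′ exons, UMIs counted there do not tell p16 from ARF, and the promoters of both starts are shown for that reason. Both are RefSeq sequences of GRCm38.p6 on the - strand, from 250 bases before to 50 after the start, at chr4:89294570-89294869 for the distal start and chr4:89282143-89282442 for the proximal start. Capitals mark letters of an E2F site, of which TTTGGCGC, TTTCCCGC, TTTGGCGG and TTTCGCGC were searched on both strands.
Cdkn2a distal: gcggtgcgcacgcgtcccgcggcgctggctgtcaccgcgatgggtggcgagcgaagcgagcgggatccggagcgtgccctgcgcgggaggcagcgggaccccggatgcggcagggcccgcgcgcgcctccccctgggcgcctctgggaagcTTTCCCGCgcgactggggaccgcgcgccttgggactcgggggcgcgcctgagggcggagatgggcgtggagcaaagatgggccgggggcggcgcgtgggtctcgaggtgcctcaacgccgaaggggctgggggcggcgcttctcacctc
Cdkn2a proximal: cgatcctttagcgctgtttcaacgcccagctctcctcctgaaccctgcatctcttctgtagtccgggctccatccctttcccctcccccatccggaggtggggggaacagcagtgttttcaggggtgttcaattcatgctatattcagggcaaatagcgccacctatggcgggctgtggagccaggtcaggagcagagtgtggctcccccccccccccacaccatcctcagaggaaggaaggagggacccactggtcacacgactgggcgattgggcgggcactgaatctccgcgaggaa
The distal window held 1 match, 99 bases before the start, and the proximal window none. Over all 32851 windows, 777 (2.37%) held one of these letters, and no window of Ccnd3, Cdk4, Cdk6, Cdkn1b or Cdkn2b did.

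Cdkn2b (chr4:89306299-89311039, - strand), the neighboring INK4 gene that encodes p15, a target of TGF-beta signaling, was detected in all control and ESCC mice. Controls ranged from 2.48 to 28.1 CPM and ESCC mice had 25.8, 24.8 and 17.1 CPM, within the control range. The count ratio was 1.36 with a 95% counting interval of 0.893 to 2.14, and the exact permutation p was 0.286. Rb1 (chr14:73183673-73325822, - strand), which encodes the pocket protein that these kinases phosphorylate, ranged from 29.5 to 71.0 CPM in controls with a median of 46.1 CPM and was 29.0, 24.2 and 29.9 CPM in ESCC. Only mouse 17M lay, by a small margin, above the lowest control, and mice 8M and 17F lay below all. The log2 fold change of -0.63 ± 0.25 did not pass (edgeR adjusted p = 0.0512). It passed without control mouse 2 (-0.73, edgeR adjusted p = 0.0253), without ESCC mouse 8M (-0.70, 0.0387), without any 1 EoE mouse (9: -0.66, 0.0493, 10: -0.64, 0.0469, 11: -0.64, 0.0486, 12: -0.66, 0.0495) with library totals (-0.81, 0.0116), with DESeq2 size factors (-0.65, 0.0495) and with only the control and ESCC mice (-0.66, 0.0437). Rb1 overlaps Rcbtb2 on the opposite strand at its 3′ end, and the sources used here do not state whether counting used strand.

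Replication genes that E2F factors switch on were higher in ESCC. Of 15 such genes, 13 were tested, 12 rose and none fell, with a median log2 fold change of 0.97. Over all genes 34.6% were called in either direction, with a median of 0.01. Mcm7, Mcm4 and Mcm3, subunits of the replicative helicase, rose by 2.21 ± 0.34, 1.59 ± 0.25 and 1.18 ± 0.27 (edgeR adjusted p = 9.28e-06, 9.36e-06 and 0.000853), and Rrm2, a subunit of ribonucleotide reductase, by 1.40 ± 0.28 (0.000196). Of 8 genes for cyclins E and A, Cdk2 and its activators, 5 were tested and none passed. Of 12 other pocket proteins, E2F factors and partners, 4 were tested and 2 rose, Tfdp1, the DNA binding partner of E2F factors, by 1.25 ± 0.31 (0.00239) and Rbl1, which encodes p107, by 0.59 ± 0.23 (0.0452).

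Of the 3 other kinase inhibitors, 2 were tested. Cdkn2d, which encodes the INK4 inhibitor p19, fell by 1.18 on the log2 scale, with an SE of 0.27 (edgeR adjusted p = 0.00111), and Cdkn1a, which encodes p21, had -0.07 ± 0.22 (0.83). Of 10 genes for turnover of D cyclins and p27 and for Cdk4 folding, 6 were tested and 2 rose, Cks1b, a cofactor of p27 degradation, by 0.83 ± 0.18 (0.000770) and Rbx1, a ubiquitin ligase subunit, by 0.62 ± 0.23 (0.0335). These lists were read by their counts and medians alone, and their members do not move independently of each other.

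Cell composition differed between the groups, so the members were next compared within Krt5-rich cells. A cell was called Krt5-rich where the log10 of 1 plus Krt5 per 1000 UMIs exceeded that of Krtdap, a keratinocyte differentiation gene, by more than 0.3, and Krtdap-rich where it fell short by more than 0.3. Krt5-rich cells made up 61.7% ± 11.3 (SD, n = 6) of control cells and 83.2% ± 3.97 (n = 3) of ESCC cells, 862 and 1235 cells. They had a median of 951.5 UMIs in control and 3001 in ESCC. Of the cells used, 58 in control and 99 in ESCC lay within 0.1 of the limit for Krt5-rich. Cells near the limit for Krtdap-rich were not counted. In controls, 10 basal markers other than Krt5 summed to 14807 to 19276 CPM in Krt5-rich cells and 1531 to 4697 CPM in Krtdap-rich cells, and 10 superficial markers to 9336 to 13739 and 74357 to 114463 CPM, as the names imply. In ESCC the basal markers summed to 13759 to 18372 CPM in Krt5-rich and 2485 to 16817 CPM in Krtdap-rich cells, so that the classes overlapped by these markers there. The superficial markers summed to 3644 to 6085 CPM in Krt5-rich and 36114 to 58215 CPM in Krtdap-rich cells of ESCC, without overlap. Krtdap within Krt5-rich cells was 70.0 to 453 CPM in control and 485 to 1377 CPM in ESCC, so the class was less pure by that gene in ESCC. The 10 superficial markers went the other way, with lower sums in Krt5-rich cells of ESCC than of control.

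Within Krt5-rich cells, Cdk6 was higher and Cdkn1b lower in ESCC, Ccnd2 was lower, and Cdk4 and Ccnd1 had values near 0 on the log2 scale. Of 5 members tested, 1 rose, 2 fell and 2 did not pass, against 28.4% of 4333 genes called, with a median of 0.14 for the members and -0.02 for all genes. With library totals the median of all genes was -0.27 and the calls moved from 662 higher and 568 lower to 441 and 1093.

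Cdkn1b in Krt5-rich cells ranged from 105 to 162 CPM in controls with a median of 143 CPM. ESCC mice 8M, 17F and 17M had 83.5, 44.2 and 49.9 CPM. No ESCC mouse reached the lowest control. Cdkn1b fell by 0.97 on the log2 scale, with an SE of 0.27 (edgeR adjusted p = 0.00875), and the exact permutation p of 0.0119 was the smallest that the design allows. Without ESCC mouse 17F the value was -0.79 (edgeR adjusted p = 0.0632).

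Cdk6 in the same cells ranged from 47.4 to 124 CPM in controls with a median of 78.1 CPM, and was 89.0, 201.7 and 197 CPM in ESCC mice 8M, 17F and 17M. Mice 17F and 17M again lay above all controls and mouse 8M among them. Cdk6 rose by 1.22 ± 0.27 (edgeR adjusted p = 0.00111, exact permutation p = 0.0476), and it passed with each control or ESCC mouse left out. In these cells the immune markers summed to 0 to 58.3 CPM in controls and 74.6 to 135 CPM in ESCC, and their part was not tested here either.

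Ccnd2 in Krt5-rich cells ranged from 518 to 1154 CPM in controls with a median of 793 CPM, and was 563, 393 and 356 CPM in the ESCC mice. Mouse 8M lay above the lowest control, and 17F and 17M below all. Ccnd2 fell by 0.62 on the log2 scale, with an SE of 0.22 (edgeR adjusted p = 0.0406, exact permutation p = 0.0476). The call was lost without control mouse 2 (-0.63, edgeR adjusted p = 0.0571), 3 (-0.51, 0.0698), 4 (-0.57, 0.0788) or 5 (-0.64, 0.0510), without ESCC mouse 17F (-0.53, 0.144) or 17M (-0.48, 0.163), and in DESeq2 (-0.62, 0.0545).

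The other members gave no call in Krt5-rich cells. Cdk4 had a mean of 241 ± 40.8 CPM in control and 238 ± 25.6 CPM in ESCC, with a log2 fold change of 0.25 and an interval of -0.11 to 0.60. Ccnd1 had 237 ± 93.6 and 213 ± 18.7 CPM, with 0.14 and -0.32 to 0.59. The log2 ratios of mean CPM were -0.02 for Cdk4 and -0.16 for Ccnd1. Both were opposite in sign to the TMM-scaled fit, so neither gene has a settled direction here. Cdkn2a had 6 UMIs in control and 98 in ESCC, a ratio of 3.62 with a 95% counting interval of 1.60 to 10.1, but the groups overlapped, since control mouse 5 had 28.0 CPM against 17.4, 20.7 and 30.5 CPM in ESCC (exact permutation p = 0.0952). Without a filter on low counts its log2 fold change was 2.05 ± 0.57 (edgeR adjusted p = 0.00401). Rb1 had 44.5 ± 17.6 and 27.7 ± 3.71 CPM, Cdkn2b 6.67 ± 8.91 and 15.6 ± 1.36 CPM, Ccnd3 13.1 ± 12.1 and 12.1 ± 1.15 CPM, and Cdkn1c 3 and 20 UMIs.

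Cdkn1a, which encodes p21, was lower in Krt5-rich than in Krtdap-rich cells, and within Krt5-rich cells it rose in ESCC by 1.30 ± 0.19 (edgeR adjusted p = 1.21e-05). Of the E2F targets, 5 of 11 tested rose in Krt5-rich cells of ESCC, with a median of 0.58. Over all genes 28.4% were called in either direction, with a median of -0.02. Cdkn2d fell by 1.55 (SE 0.32, edgeR adjusted p = 0.000632). Of the other lists, Tfdp1 rose by 1.20 ± 0.34 (0.00910), and none of 3 genes for cyclins E and A and Cdk2 activators and none of 6 turnover genes passed.

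**Figure D2:**
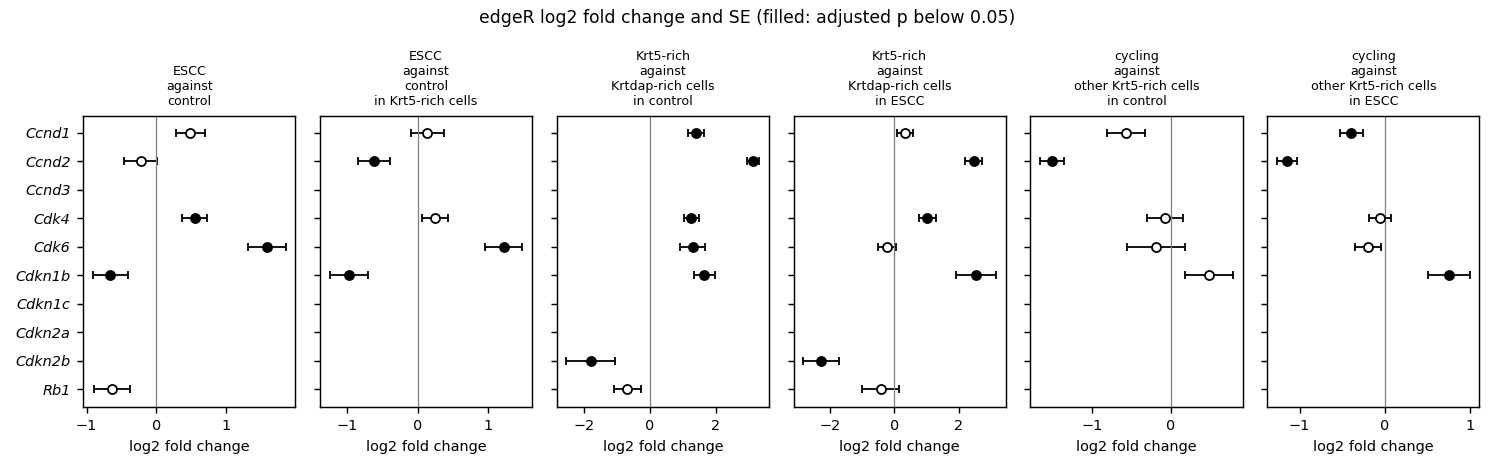
The log2 fold change from edgeR (horizontal axis) with its SE for each member tested (rows) in 6 comparisons (panels), filled where the adjusted p was below 0.05. Cdk6 is above 0 and Cdkn1b below 0 in both comparisons of ESCC with control, and Ccnd2 is far above 0 in Krt5-rich against Krtdap-rich cells and below 0 in cycling against other Krt5-rich cells of both groups. Members without a point had too few UMIs.

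Within control mice, most members tested were higher in Krt5-rich than in Krtdap-rich cells, and Ccnd2 had the largest log2 fold change of the 7. In controls, 5 of 7 members tested were higher, 1 was lower and 1 did not pass, against 45.9% of 4827 genes called, with a median of 1.30 for the members and 0.03 for all genes (0.29 with library totals, which moved the calls from 1083 higher and 1131 lower to 1537 and 831). Ccnd2 was 805 ± 213 CPM (SD, n = 6) in Krt5-rich cells and 82.9 ± 31.9 CPM in Krtdap-rich cells. The lowest Krt5-rich value (518 CPM) was well above the highest Krtdap-rich value (132 CPM). The log2 fold change, with each mouse as its own block, was 3.13 ± 0.19 (edgeR adjusted p = 5.88e-24), 8.76-fold.

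The other 4 were each higher in Krt5-rich cells in 6 of 6 controls. Ccnd1 was 237 ± 93.6 against 71.4 ± 21.6 CPM (1.40 ± 0.24, edgeR adjusted p = 8.73e-07), and Cdk4 241 ± 40.8 against 78.7 ± 23.6 CPM (1.25 ± 0.23, 3.48e-06). Cdk6 was 82.5 ± 28.8 against 28.8 ± 10.9 CPM (1.30 ± 0.38, 0.00342), and Cdkn1b 138 ± 25.5 against 30.7 ± 18.1 CPM (1.66 ± 0.33, 2.05e-05). The inhibitor Cdkn1b thus had the same direction as the cyclins and kinases.

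Cdkn2b went the other way, with 6.67 ± 8.91 CPM in Krt5-rich and 29.3 ± 26.1 CPM in Krtdap-rich cells of controls. It was lower in Krt5-rich cells in 4 of 6 mice, higher in mouse 1, and at 0 in both in mouse 2. The log2 fold change of -1.80 ± 0.74 (edgeR adjusted p = 0.0391) rested on 25 UMIs, and the call was lost without control mouse 6 (-1.34, 0.186), 3 (-1.54, 0.0968), 4 (-2.37, 0.0501) or 5 (-1.93, 0.0683), or without ESCC mouse 17F (-1.70, 0.0533) or 17M (-1.70, 0.0552), with library totals (-1.57, 0.0750) and with no filter (-1.69, 0.0666). Rb1 did not pass (-0.69 ± 0.41, edgeR adjusted p = 0.175). Cdkn2a had all of its 6 control UMIs in Krt5-rich cells, and Ccnd3 had 14 there and 1 in Krtdap-rich cells.

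In ESCC the same comparison rested on 252 to 553 Krt5-rich and 16 to 44 Krtdap-rich cells per mouse. Of the 7 members tested, 3 were higher in Krt5-rich cells, 1 was lower and 3 did not pass, against 30.5% of genes called, and the median was 0.34 against 0.03 for all genes (0.24 with library totals, which moved the calls from 712 higher and 758 lower to 990 and 558). Ccnd2 was 563, 393 and 356 CPM in Krt5-rich cells and 125, 14.6 and 42 CPM in Krtdap-rich cells of 8M, 17F and 17M, higher in 3 of 3 mice. Its log2 fold change was 2.46 ± 0.26 (edgeR adjusted p = 1.28e-12). Cdk4 (1.01 ± 0.27, 0.00183) and Cdkn1b (2.53 ± 0.62, 0.000764) were also higher in 3 of 3 mice, but Cdkn1b had 4 UMIs in Krtdap-rich cells, all in mouse 8M.

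Cdk6 in ESCC did not pass between Krt5-rich and Krtdap-rich cells. Krt5-rich cells had 89.0, 201.7 and 197 CPM and Krtdap-rich cells 48.0, 190.1 and 315 CPM in 8M, 17F and 17M. The Krtdap-rich values came from 53 UMIs, 10 to 30 per mouse. Mice 8M and 17F were higher in Krt5-rich cells and 17M was lower, with a log2 fold change of -0.22 ± 0.28 (edgeR adjusted p = 0.596). Ccnd1 was higher in Krt5-rich cells in 3 of 3 mice (213 ± 18.7 against 149 ± 38.6 CPM) but did not pass (0.34 ± 0.25, 0.329). Cdkn2b was lower in 3 of 3, with 16.3, 16.6 and 14.1 CPM against 72.0, 131.6 and 21 CPM (-2.27 ± 0.55, 0.000776), a call lost without 17F (-1.71, 0.0584). Krtdap-rich cells held 26 UMIs of Cdkn2b, 2 to 15 per mouse. Cdkn2a was also lower in Krt5-rich cells in 3 of 3 (17.4, 20.7 and 30.5 against 52.8, 43.9 and 31.5 CPM), by a small margin in 17M. Its Krtdap-rich values rested on 17 UMIs, 3 to 11 per mouse, and those of 17F and 17M equal the limit of 3 UMIs. Cdkn2a was not tested, and without a filter on low counts gave -1.0 ± 0.53 (edgeR adjusted p = 0.286).

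**Figure D3:**
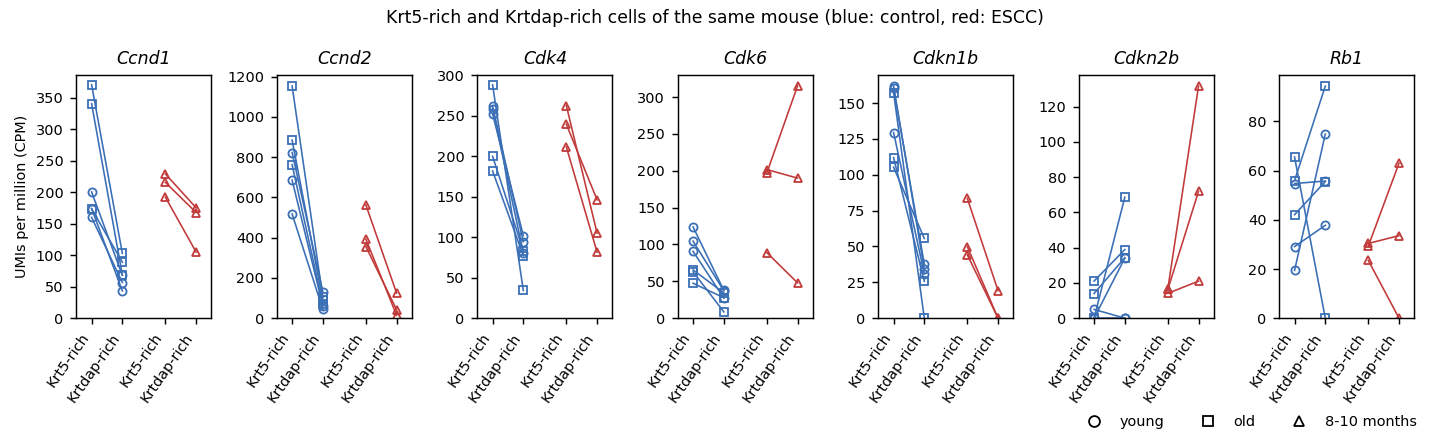
CPM (vertical axis, linear, own scale per panel) of the 7 members tested in Krt5-rich and Krtdap-rich cells, with a line for each mouse, control in blue and ESCC in red. All 6 control lines fall for Ccnd1, Ccnd2, Cdk4, Cdk6 and Cdkn1b, and the ESCC lines of Cdk6 run in both directions.

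The difference between these effects in ESCC and in control was tested as an interaction. None of the 7 members passed, against 1.12% of genes called by edgeR (54 of 4827, and 509 at an unadjusted p under 0.05). DESeq2 called 24 genes and no member. The difference was -1.52 ± 0.48 for Cdk6 (edgeR adjusted p = 0.104, unadjusted 0.00210) and -1.06 ± 0.35 for Ccnd1 (0.163, unadjusted 0.00385). Cdk6 passed without ESCC mouse 8M (-1.78, 0.0269). With each cell thinned to 300 UMIs before classes were set, both passed, Cdk6 at -1.61 (0.0368) and Ccnd1 at -1.61 (0.00306). For Cdkn1a the difference was 1.26 ± 0.20 (1.19e-05).

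Of the other lists, the E2F targets and the pocket proteins and E2F factors were mostly higher in Krt5-rich cells, and the other 3 lists had 1 gene higher each. Of the E2F targets, 8 of 8 tested were higher in Krt5-rich cells of controls and 7 of 8 in ESCC, with medians of 3.31 and 2.30. Over all genes 45.9% and 30.5% were called in either direction. In controls Mcm3 was higher by 4.98 ± 0.75, Tk1 by 4.02 ± 0.52, Mcm5 by 3.88 ± 0.48 and Mcm4 by 3.47 ± 0.54 (edgeR adjusted p at most 9.81e-08). Ccna2, cyclin A2, was higher by 4.70 ± 0.44 in control (3.51e-15) and was 1 of 4 genes tested of its list to pass in each group. Rbl1 (3.14 ± 0.55) and Tfdp2 (1.79 ± 0.46) passed in control, 2 of 3 tested, and all 3 passed in ESCC. Cdkn2d was higher by 2.74 ± 0.49 and Cdkn1a lower by 2.91 (SE 0.14) in control. Of 6 turnover genes, Cks1b (2.36 ± 0.28) was higher and Cdc37, a chaperone of Cdk4, lower by 0.74 (SE 0.23) in control, and Cks1b alone passed in ESCC, with medians of 0.04 and 0.03.

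Krt5-rich cells were then split by genes of the late cell cycle. Cells with 3 or more UMIs of 22 genes of G2 and M phase were called cycling, which were 25.9% to 36.1% of Krt5-rich cells in control mice and 39.1% to 42.5% in ESCC mice. The rest, called other, can hold cells in G1 or S phase and shallow dividing cells as well as resting cells. Cycling cells were deeper, with a median of 1092 UMIs against 908 in control and 3678 against 2680.0 in ESCC, and these shares can be set by depth. Ccnd2 was lower in the cycling cells of every mouse, while Cdk4 and Cdk6 had values near 0. In control 1 of 5 members tested was called and in ESCC 3 of 5, against 13.1% and 14.1% of 3274 genes. The medians were -0.18 and -0.20 for the members and -0.04 and -0.05 for all genes. With library totals the calls in ESCC moved from 258 higher and 202 lower to 320 and 112.

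In controls, Ccnd2 ranged from 280.2 to 685 CPM in cycling cells and from 695 to 1360.0 CPM in other Krt5-rich cells. The log2 fold change was -1.51 ± 0.15 (edgeR adjusted p = 2.11e-13), lower in 6 of 6 mice. In ESCC, cycling cells of 8M, 17F and 17M had 287, 289 and 234 CPM and the other cells 837, 481 and 466 CPM, with a log2 fold change of -1.15 ± 0.12 (7.81e-14), lower in 3 of 3. The mice did not overlap between the classes in either group, by a narrow margin in control.

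Ccnd1 was 206 ± 123 against 260.0 ± 98.9 CPM in control, lower in 4 of 6 mice (-0.57 ± 0.24, edgeR adjusted p = 0.111). In ESCC it was 181, 217 and 166 CPM in cycling and 251, 240.0 and 216 CPM in other cells of 8M, 17F and 17M, lower in 3 of 3 (-0.40 ± 0.13, 0.0337). The ESCC call was lost without 8M (-0.35, 0.146), 17F (-0.51, 0.0649) or 17M (-0.37, 0.227), with DESeq2 (-0.42, 0.225), with library totals (-0.31, 0.144), with no filter (-0.38, 0.157) and at 5 or more late cycle UMIs (-0.35, 0.0839).

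Cdkn1b was higher in cycling cells in 5 of 6 controls, with 183 ± 86.5 against 114.5 ± 30.7 CPM, and did not pass (0.49 ± 0.30, edgeR adjusted p = 0.356). In ESCC it was 128, 51.2 and 58.1 CPM in cycling and 38.9, 38.3 and 42.4 CPM in other cells, higher in 3 of 3 (0.75 ± 0.24, 0.0224). Mouse 8M carried most of this, and without it the value was 0.35 (0.541). DESeq2 gave 0.75 with an adjusted p of 0.254.

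Cdk4 had log2 fold changes of -0.07 ± 0.23 in control and -0.06 ± 0.13 in ESCC, and Cdk6 -0.18 ± 0.37 and -0.20 ± 0.15. All 3 Cdkn1c UMIs of control Krt5-rich cells were in cycling cells, and 13 of 20 in ESCC. Cdkn2a had 4 and 2 UMIs in cycling and other cells of control, and 51 and 47 in ESCC. Rb1, not tested here, was 34.4 ± 7.14 against 21.5 ± 2.7 CPM in ESCC, higher in 3 of 3, and 54.5 ± 41.7 against 39.2 ± 17.0 CPM in control, higher in 4 of 6.

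**Figure D4:**
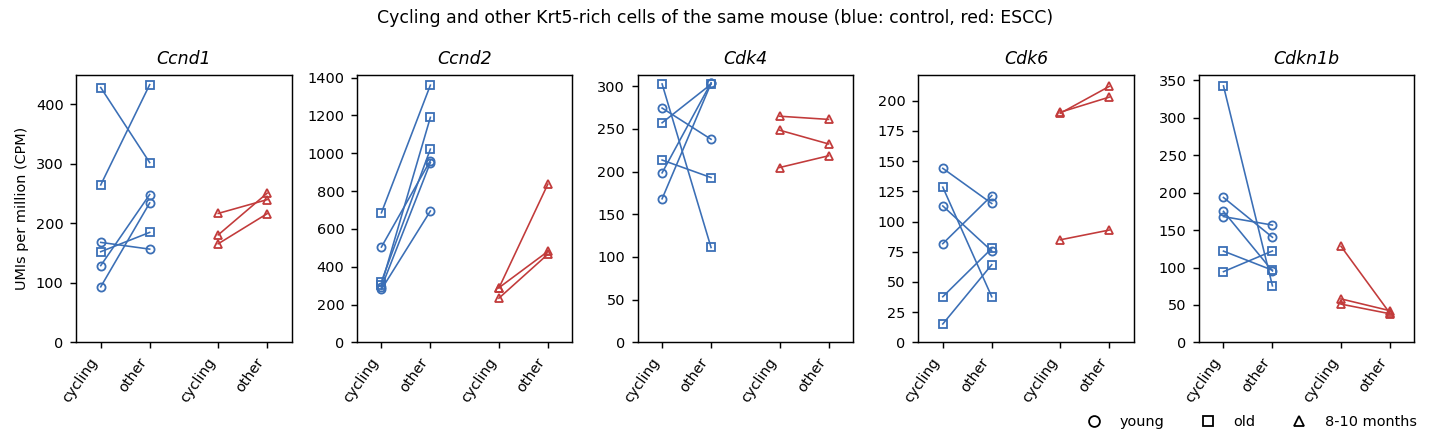
CPM (vertical axis, linear, own scale per panel) of the 5 members tested in cycling and other Krt5-rich cells, with a line for each mouse, control in blue and ESCC in red. All 9 lines rise from cycling to other cells for Ccnd2, and those of Cdk4 run in both directions.

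The E2F targets were higher in cycling cells in 6 of 9 tested in control and 8 of 9 in ESCC, led by Rrm2 (2.76 ± 0.53 and 2.56 ± 0.24). Over all genes 13.1% and 14.1% were called in either direction. Cycling cells were chosen by their G2 and M phase genes, so higher levels of other cycle genes describe the class only. Ccna2 was higher by 4.77 ± 0.33 and 4.47 ± 0.26, 1 of 2 tested in its list. The other INK4 inhibitors Cdkn2c, which encodes p18, and Cdkn2d were both higher in cycling cells, Cdkn2c by 4.09 ± 0.75 and 2.16 ± 0.50 and Cdkn2d by 3.33 ± 0.40 and 2.79 ± 0.40 (edgeR adjusted p at most 0.000589), and Cdkn1a passed in ESCC alone (0.50 ± 0.11, 0.000459), a difference that was not tested. E2f8 and Rbl1, 2 of 2 tested, were higher in both groups, Rbl1 by 2.09 ± 0.39 in control. Cks1b was higher by 2.77 ± 0.24 and 1.97 ± 0.14, while Cul1 (-1.10 ± 0.37) and Hsp90ab1 (-0.22 ± 0.06) were lower in control.

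EoE gave values that depend on which of the deposited cells are used. In the cells used, Ccnd2 fell and Cdkn1b rose against control, and Ccnd1 and Cdk4 had no UMI. Of 6 members tested, 1 rose, 3 fell and 2 did not pass, against 34.5% of 5866 genes called. The 3 that fell include Ccnd1 and Cdk4, at 0 in EoE, whose fitted folds are not given. The median was -0.84 for the members, with these genes fitted or at their limit of detection, and -0.75 for all genes. EoE cells were also poor in basal markers, which summed to 1664 to 2649 CPM against 9073 to 13833 CPM in controls, and rich in superficial markers (114391 to 173259 against 29334 to 60795 CPM). Krt5-rich cells numbered 20 of 143, so fewer cells of that class and less RNA per cell cannot be told apart here.

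Ccnd2 was 157, 239 and 223 CPM in EoE mice 9, 10 and 12, from 5, 10 and 4 UMIs, and 0 in mouse 11. Mice 9, 10 and 12 lay below the lowest control (293 CPM). The 0 of mouse 11, of 6245 UMIs in all, allows up to 480.4 CPM by the limit of 3 UMIs in that mouse, so its place among the controls is not known. Ccnd2 fell by 1.56 on the log2 scale, with an SE of 0.41 (edgeR adjusted p = 0.00430, exact permutation p = 0.0143). With all deposited cells, which include many with few genes, EoE mice 9 to 12 had 396, 422, 1575 and 1293 CPM, and the direction was reversed (0.96, edgeR adjusted p = 0.0115). The old mice 11 and 12 then lay above all controls and the young mice 9 and 10 within them.

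Cdkn1b was 157, 382, 0 and 167 CPM in EoE mice 9 to 12, from 5, 16, 0 and 3 UMIs. Mouse 10 carried 16 of the 24 UMIs, and mice 9, 10 and 12 lay above all controls, while mouse 11 had no UMI. Cdkn1b had a log2 fold change of 1.17 ± 0.42 (edgeR adjusted p = 0.0295, exact permutation p = 0.276). The call was lost without EoE mouse 10 (0.36, edgeR adjusted p = 0.677), EoE mouse 9 (1.27, 0.0542) or control mouse 5 (1.08, 0.0528), with groups split by age (0.57, 0.445) and with no filter (0.84, 0.123). In all deposited cells the EoE mice had 373, 729, 649.7 and 487 CPM, above all controls, whose highest was 131 CPM.

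For Cdk6 the EoE mice had 94.2, 143, 0 and 111 CPM, from 3, 6, 0 and 2 UMIs, and the value did not pass (0.65 ± 0.63, edgeR adjusted p = 0.442). With all deposited cells it passed, at 1.97 (3.73e-05), with 209 to 245 CPM in EoE against 37.4 to 111 CPM in control. Ccnd3, not tested in the cells used (2 UMIs), passed as well in all deposited cells on 11 UMIs (2.12, 0.00657), and the count ratio in the cells used was 2.23 with a 95% counting interval of 0.248 to 9.47. Rb1 had 5 UMIs in the cells used (-0.12 ± 0.63, 0.901), and Cdkn1c, Cdkn2a and Cdkn2b none of 97975, which allows up to 30.6 CPM for each, above the level of these genes in control. Cdkn1a was higher by 1.08 ± 0.23 (0.000562).

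**Figure D5:**
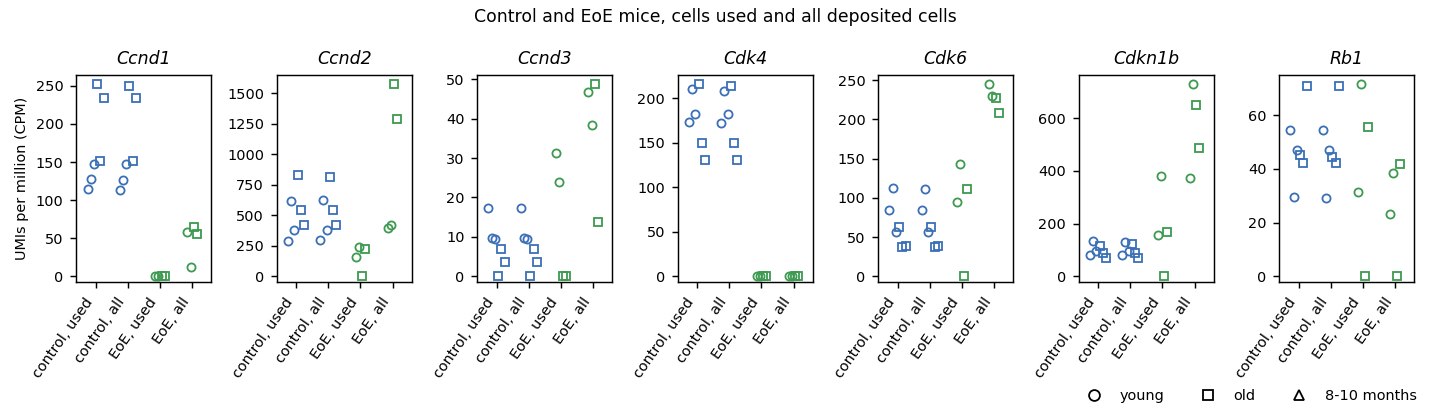
CPM (vertical axis, linear, own scale per panel) of 7 members in each control and EoE mouse, in the cells used and in all deposited cells, with circles for young and squares for old mice. Control values hardly move between the cell sets, EoE values of Ccnd2, Cdk6 and Cdkn1b rise, and Cdk4 stays at 0 in EoE in both.

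Cdk4 and Ccnd1 need care in EoE. Cdk4 was listed at 0 in all 4 EoE mice even in all deposited cells (0 of 297425 UMIs), while controls had 131 to 214 CPM. So were 103 of the 4348 genes at 40 CPM or more in control, among them Cox5a, a subunit of cytochrome c oxidase that all cells use (523 CPM in control), and none of these 4348 was at 0 in ESCC. Of 102 such genes found in the annotation, 65 (63.7%) shared exonic bases with a gene on the opposite strand, against 1199 of 4222 others (28.4%). Cdk4 is one of them, since its 3′ end shares 641 exonic bases with Tspan31, which was also at 0 in EoE (10.9 CPM in control). No fold is given for Cdk4 for this reason, and the part of read counting in its zeros was not tested.

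Ccnd1 had 0 of 97975 UMIs in the EoE cells used, at most 30.6 CPM, at least 5.20-fold lower than in control by the limit of 3 UMIs over the group. In all deposited cells it had 14 UMIs, or 58.3, 12.8, 65.0 and 55.6 CPM in mice 9 to 12, all below the lowest control of 114 CPM. Its 3′ end shares 1100.0 exonic bases with LTO1 on the opposite strand, which was 269 CPM in EoE against 14.3 CPM in control and 13.3 CPM in ESCC. The gene next to Ccnd1 thus moved opposite to it in EoE, and whether reads of the shared bases were assigned differently was not tested.

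Against each other, ESCC and EoE differed in the same members. Of 6 tested, 3 were higher in ESCC, 1 was lower and 2 did not pass, against 41.6% of genes called, with a median of 1.13 for the members, with genes at 0 in EoE fitted or at their limit, and 0.81 for all genes. With library totals the calls moved from 1753 higher and 687 lower to 1296 and 891. Cdkn1b was lower in ESCC by 1.83 on the log2 scale, with an SE of 0.44 (edgeR adjusted p = 0.00141), a call lost without EoE mouse 10 (-1.03, 0.206). Ccnd2 was higher (1.33 ± 0.43, 0.0147), reversed with all deposited cells (-1.21, 0.00588), and the other 2 higher calls are Ccnd1 and Cdk4, with no EoE UMI. Cdk6 did not pass (0.93 ± 0.55, 0.174) but did without ESCC mouse 8M (1.34, 0.0148).

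In EoE, where 34.5% of all genes were called with a median of -0.75, 4 of 13 E2F targets tested fell, a share close to that of all genes. They were Mcm5, Tk1 and Mcm6, on 1 EoE UMI each, and Rrm1, at 0 (edgeR adjusted p at most 0.0498), and the median of the 13 was -2.02 as fitted and -1.81 with the genes at 0 at their limit. The medians of the cyclin E and A, pocket and turnover lists were -0.22, -0.55 (-0.49 at the limit) and -0.63. The count ratio of Mcm5 was 0.139 with a 95% counting interval of 0.00349 to 0.789 and that of Tk1 0.151 (0.00379 to 0.857), while that of Mcm6 was 0.191 with an interval that spans 1 (0.00480 to 1.09). Ccna2 fell on 2 EoE UMIs (edgeR adjusted p = 0.00472), 1 of 5 tested, with a count ratio of 0.159 (0.0191 to 0.581). Of 6 turnover genes, Gsk3b, the kinase that marks cyclin D1 for export and degradation, rose (0.93 ± 0.24, 0.00336), Hsp90ab1 fell by 0.82 on the log2 scale (SE 0.23, 0.00700), Cul1 fell on 1 UMI, and Cks1b was at 0 in EoE. Of 4 pocket and E2F genes 1 was called, Rbl1, at 0 in EoE.

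Within Krt5-rich cells, EoE mice had 8827 UMIs in all, of which 9 were Ccnd2, 7 Cdkn1b and 1 Cdk6, and the other members had none, which allows up to 339.9 CPM each. Pooled over mice, Ccnd2 was 1020 CPM against 763 CPM in control, and Cdkn1b 793 against 134 CPM. Cdk6 was 113 against 83.2 CPM. The fall of Ccnd2 over all EoE cells used was thus not seen in this class, on these few UMIs, and no difference was tested. Mice 9 and 10 alone had 5 or more such cells, and a planned test between these groups was left out, because on simulated data of the same size it called genes where nothing had been changed.

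Age was compared in the control mice. None of the 6 members tested passed, and neither did any of the 6488 genes tested (0% called, with edgeR, with 293 at an unadjusted p under 0.05, 1 called by DESeq2 and 18 by edgeR with no filter). Ccnd1 was 114, 128 and 148 CPM in young mice 1, 2 and 6, and 252, 152 and 234 CPM in old mice 3, 4 and 5. Every old mouse lay above every young mouse, with means of 129.96 ± 17.0 and 213 ± 53.4 CPM (SD, n = 3 each) and a log2 fold change of 0.70 ± 0.25 (edgeR unadjusted p = 0.00918, adjusted p = 0.996). Cdk6 was 84.7 ± 28.1 CPM in young and 46.5 ± 14.4 CPM in old mice (-0.90 ± 0.43, edgeR unadjusted p = 0.0457, adjusted p = 1.0). Cdkn2a, a gene known to rise with age in many tissues, had 0 of 923890 UMIs in young mice, which allows up to 3.25 CPM, and 6 of 820621 in old mice, 4 of them in mouse 5. Cdkn2b had 8 UMIs in young and 20 in old mice.

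The genes whose log2 CPM followed a member most closely over the 9 control and ESCC mice, of 5791 compared, are given as a description. For Ccnd1 these were Psmd5 (Pearson r = 0.968), Resf1 (0.955) and Cdv3 (0.95). Those nearest to Ccnd2 were Galk2 (0.931), Zfp638 (0.918) and Rp9 (0.907), and to Cdk4 Chic2 (0.978), Klc1 (0.961) and Dgat1 (0.959). Cdkn1b was nearest to Ctnnal1 (0.938), Sparc (0.935) and Tmem176a (0.931). The points share libraries and depth, and the highest of so many values is high by selection.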

How the data were processed

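Per the submitters' processing notes and the study's methods, the authors demultiplexed inDrop reads with UMI-tools 1.0.0, aligned them with STAR 2.7.3 to GRCm38 and counted genes with featureCounts. The deposited files hold UMI counts per gene and cell, not normalized, 1 file for each of 22 libraries. Whether counting used strand is not given in the sources used here.

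Counts of the 1 or 2 libraries of a mouse were summed, giving 13 mice. Cells with 250 to 3500 genes and 100 to 9500 UMIs were used, less those with 3 or more non-epithelial marker UMIs that outnumbered epithelial ones. The limits on genes and UMIs follow the study, no doublet caller was run, and these steps left 143 of 1500 deposited EoE cells. The study's methods name these limits and then a downsampling to 1500 cells per condition, the number deposited for each group. Of these, 144 EoE cells lay within the limits, against 1500 control and 1494 ESCC cells. The 143 cells are thus not the study's EoE cell set, and the reason for the gap was not tested. The total depth per mouse is given in the report. Counts were tested with edgeR 4.0.16 in R 4.3.3 (TMM scaling, filterByExpr, the quasi-likelihood test, Benjamini-Hochberg adjustment over all genes tested, threshold 0.05). The fit over all cells held all 13 mice, and the fits of states and of cycling cells held control and ESCC mice, at least 5 cells per sum and a term per mouse. Intervals of log2 fold changes are 1.96 SE on either side, and p-values measure the spread between mice. Single values had two-sided exact permutation tests of mean CPM and 95% exact conditional intervals of count ratios. The limit for 0 UMIs was 3 counts over the group, or in 1 mouse where so stated. Intervals of count ratios and limits for 0 UMIs cover counting error only.

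The members and lists were chosen with earlier results of these data known. Named genes were all members, Cdkn1a, up to 4 genes past the threshold with the largest log2 fold change in each of 5 pathway lists, and, for each member with 10 or more UMIs in every control and ESCC mouse, the 3 genes (average log2 CPM of 5 or more) with the highest Pearson r. Alternatives were DESeq2 1.42.0, library totals, DESeq2 size factors, no filter, all deposited cells, groups split by age, only the groups compared, Krt5 at 0.5% of UMIs, thinning to 300 UMIs, 5 late cycle UMIs and leaving out each mouse. All deposited cells without a filter, a fit without genes at 0 in all EoE or control cells, and the Krt5-rich fit without EoE mice were chosen after seeing the data. The fits were tested on simulated data. The Krt5-rich fit also held EoE mice 9 and 10, whose sums reached 5 cells. A planned test of EoE against control in it was left out, since it called genes in simulated data with no change between those groups. Promoters are RefSeq's of GRCm38.p6, and 6 of the 10 members matched.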

Additional observations from a re-analysis of the deposited data

Results flagged for a closer look

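A test for a single mouse far from the rest of its group was run on 45 sets of member values, and 6 were found. Its limits are set for about 1 in 20 by chance, a rate that need not hold for sparse counts. Where all other mice are at 0, a single UMI is flagged. Control mouse 5 had the same 281826 UMIs in both cell sets, so its flags in them are not separate. The 6 found can therefore not be set against that rate. Control mouse 5 had 7.097 CPM of Cdkn1c, from 2 UMIs, where the other controls had at most 2.48 CPM, and it had the same value in all deposited cells, where the others had at most 2.47 CPM. The same mouse had 14.19 CPM of Cdkn2a, from 4 UMIs, in both cell sets, where the others had at most 4.68 CPM. Cdk6 in Krt5-rich cells was 392.8 CPM in EoE mouse 9, from 1 UMI, and 0 in the other EoE mice. Cdkn2b in all deposited cells was 12.8 CPM in EoE mouse 10, again 1 UMI, and 0 in the others. Each of these values rests on 1 to 4 UMIs.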

How the results depend on the processing

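Over 56 tested member values, 405 values under other settings kept their side of the threshold in 376, 12 of them with the other sign and neither value past the threshold, lost the call in 16, gained it in 9 and reversed a call in 4. With 1 mouse left out, 536 of 578 kept their side, 15 of them with the other sign and neither value past the threshold, 32 lost the call, 10 gained it and no call reversed. The reversed calls were all of Ccnd2, which in all deposited cells was 0.96 for EoE against control and -1.21 for ESCC against EoE, and 0.76 and -0.96 without a filter as well, and the cause was not tested. In EoE a gene with no UMI in the cells used may be at up to 30.6 CPM. Mice of different groups could not be paired, because the labels give no replicate numbers shared between groups. States and cycling classes were compared within each mouse.

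Counts of called genes moved by over 1.5 times as follows. All deposited cells without a filter gave 3685 for EoE against control (2023 as reported) and 4336 for ESCC against EoE (2440), which gave 679 of 881 tested with only its own mice. Age gave 1 in DESeq2 and 18 without a filter. ESCC against control in Krt5-rich cells gave 1934 without a filter (1230). The difference of states gave 24 in DESeq2 and 87 after thinning (54), and cycling cells in ESCC 244 in DESeq2 (460). The planned test of EoE against control in Krt5-rich cells was left out after it failed on simulated data, and with all deposited cells it gave 1431.

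With each mouse left out, counts ranged from 1146 (without EoE mouse 10) to 2147 for EoE against control, 1365 to 2194 for ESCC against control, 1583 (without EoE mouse 10) to 2519 for ESCC against EoE, 0 to 10 (without 8M, with 4 without 17F or 17M) for age and 798 (without 17F) to 1490 for ESCC in Krt5-rich cells. The states ranged from 1828 to 2251 in control and 946 (without 8M) to 1529 in ESCC, their difference from 34 (without 17F or 17M) to 107 (without 8M), and cycling cells from 341 to 427 in control and 271 (without 17M, with 278 without 17F) to 471 in ESCC.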
